A study of Homo sapiens with 12 samples.

Results

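The 9 genes described here encode the signalling chains of the T cell receptor (CD3D, CD3E, CD3G and CD247), the tyrosine kinases that act next to immune receptors (LCK, ZAP70, SYK and BTK) and the adaptor LCP2. They were taken by gene symbol from the deposited tables, in which all 9 of 19225 genes were found. The list was chosen by the measured levels and medium differences of these same libraries, so the values of the members in the medium comparison are a description that supports nothing further, and no p-value is given for them.

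The cells were K562, an established human chronic myeloid leukaemia line with erythroid features that carries BCR-ABL1, an active tyrosine kinase, in every group. The 4 groups of 3 libraries were negative control siRNA in growth medium (Ctl_siNC), RHOB siRNA in growth medium (Ctl_siRHOB), control siRNA in megakaryocyte differentiation medium (MK_siNC) and RHOB siRNA in that medium (MK_siRHOB), each after 3 days. Neither the make-up of the MK medium nor the siRNA sequences could be described from the labels. The study asked what RHOB, a small GTPase of the actin cytoskeleton, does in megakaryocyte and erythroid differentiation.

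In T cells, the CD3 gamma, delta and epsilon chains and the CD247 (zeta) homodimer carry the antigen receptor to the surface and hold its immunoreceptor tyrosine-based activation motifs (ITAMs). LCK phosphorylates these motifs, ZAP70 docks on them, and ZAP70 then phosphorylates the scaffold LAT and the adaptor LCP2 (SLP-76), to which TEC family kinases and phospholipase C gamma are brought. Megakaryocytes and platelets use the same layout with other parts: the collagen receptor GPVI (GP6) with the FCER1G chain, and FCGR2A, signal through SYK, LCP2, BTK and PLCG2.

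Library totals ranged from 34412558 to 54048161 reads. RHOB, the siRNA target, stood at 1.42 to 6.20 CPM (read counts scaled to library size) in Ctl_siNC and 0.465 to 3.30 CPM in Ctl_siRHOB, and at 10.1 to 32.7 CPM in MK_siNC and 12.6 to 22.1 CPM in MK_siRHOB. RHOB was lower with its siRNA in all 3 replicate numbers in growth medium and in replicates 1 and 3 in MK medium, and the ranges overlapped in both, so siRHOB names the label only. Replicate 3 of every group stood apart: its correlation of log CPM with the other libraries of its group was 0.958 to 0.983, while replicates 1 and 2 reached 0.991 to 0.993 with each other. The K562 identity held in all groups, with all 11 erythroid line markers tested and a summed level of 4680 to 9269 CPM, and in MK medium 4 of the 11 rose and 3 fell in each siRNA arm.

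The members fell into an abundant set and a low set. By FPKM, which is per gene length and so allows genes to be compared, the mean levels in Ctl_siNC ran from BTK (43.8) through SYK (9.50), CD3D (7.79) and LCP2 (4.03) to CD3G (0.252), ZAP70 (0.151), CD3E (0.0754), CD247 (0.0278) and LCK (0.00299). The libraries of SYK and CD3D overlapped, as did those of CD3G and ZAP70, ZAP70 and CD3E, and CD3E and CD247. In Ctl_siRHOB the first 4 places were the same, and the 5 low genes overlapped their neighbours. In MK_siNC the order was BTK (67.9), CD3D (51.6), LCP2 (14.2), SYK (10.4), CD3G (1.22), ZAP70 (0.282), CD3E (0.119), CD247 (0.101) and LCK (0.0990). BTK overlapped CD3D there, the 4 genes from ZAP70 to LCK overlapped their neighbours, and CD3G lay above ZAP70 without overlap. MK_siRHOB had the same order, but there BTK lay above CD3D and ZAP70 above CD3E without overlap, while LCP2 and SYK overlapped.

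A member was called silent in a group with 3 or fewer reads over its 3 libraries. LCK was silent in Ctl_siNC, with 1 read in all, and CD247 was silent in Ctl_siRHOB, with 3 reads. No member was silent in MK medium. A filter on low counts, which kept 14026 genes, passed 7 members and left out CD247 and LCK.

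**Figure D1:**
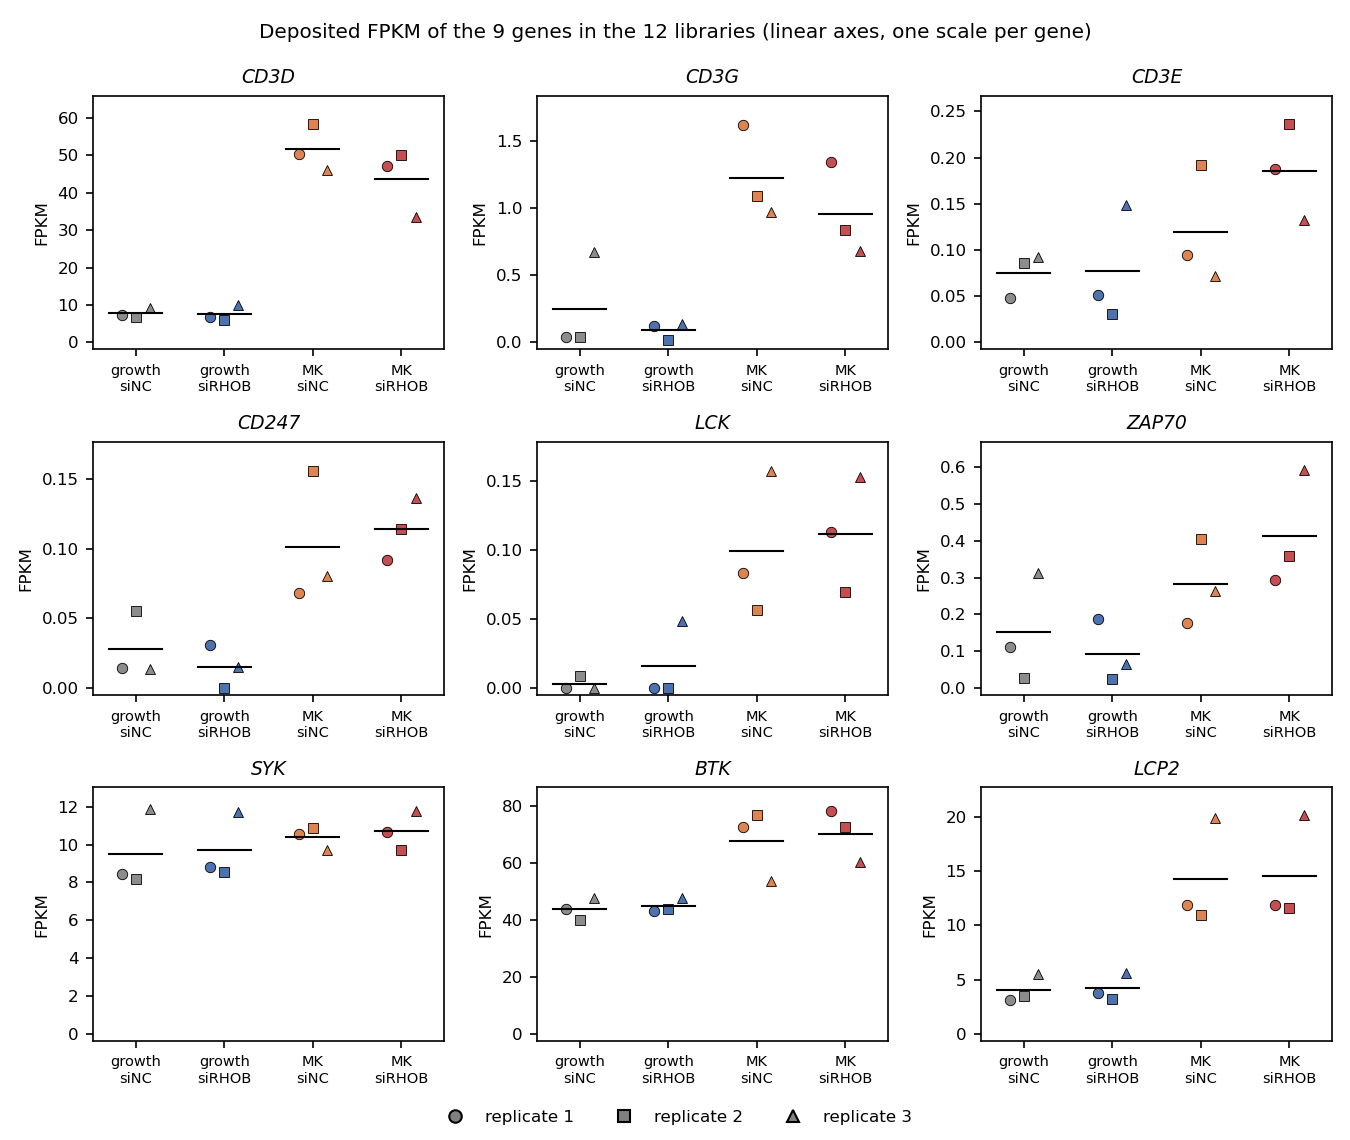
Deposited FPKM (vertical axes, linear, a separate scale for each gene) of the 9 members in the 4 groups; each point is 1 library, its shape the replicate number, and the bar the mean of 3. CD3D, LCP2 and BTK lie higher in all MK libraries than in all growth libraries, SYK stays between 8.19 and 11.9, and CD3E, CD247, LCK and ZAP70 remain below 0.6 FPKM.

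CD3D, the delta chain of CD3, was the most abundant of the CD3 and CD247 genes in all 4 groups. Its FPKM was 7.39, 6.91 and 9.08 in Ctl_siNC and 6.67, 5.88 and 9.87 in Ctl_siRHOB (replicates 1, 2 and 3). In MK medium it was 50.4, 58.4 and 46.0 with control siRNA and 47.2, 50.2 and 33.5 with RHOB siRNA. Every MK library lay above every growth library, and replicate 3 was the highest in growth medium and the lowest in MK medium.

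The log2 difference of CD3D between MK and growth medium was 2.67 ± 0.20 with control siRNA and 2.49 ± 0.20 with RHOB siRNA (SE, n = 3 against 3), a 6.37-fold and a 5.61-fold level. Within replicate numbers it was 2.65, 2.97 and 2.36 in the first arm and 2.70, 2.99 and 1.76 in the second. Among all genes of the table, CD3D passed from above 63.1% of genes in Ctl_siNC to above 92.1% in MK_siNC. In bulk RNA, more cells with CD3D RNA and more RNA per cell cannot be told apart.

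CD3G, the gamma chain, is the neighbour of CD3D on chromosome 11 and is transcribed away from it, so that their starts face each other. It had 2, 3 and 38 reads in Ctl_siNC, 6, 1 and 7 in Ctl_siRHOB, 74, 49 and 47 in MK_siNC and 68, 46 and 31 in MK_siRHOB. The 38 reads of Ctl_siNC 3 stood 17.0 times above the mean FPKM of the other 2 libraries of its group, yet below the libraries of MK_siNC. With RHOB siRNA the media were also separate.

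The log2 difference of CD3G was 2.27 ± 0.90 with control siRNA and 3.32 ± 0.99 with RHOB siRNA (SE). With single libraries left out, the first value ranged from 1.76 (without Ctl_siNC 2) to 4.76 (without Ctl_siNC 3). From replicates 1 and 2 alone it was 4.89. The second value ranged from 2.84 (without Ctl_siRHOB 2) to 3.68 (without Ctl_siRHOB 3). CD3D remained far more abundant than CD3G, with mean FPKM ratios of 31.0 and 83.0 in growth medium and 42.2 and 45.9 in MK medium (control, then RHOB siRNA).

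CD3E, the epsilon chain that pairs with delta and with gamma, lies on the other flank of CD3D and remained at a very low level. It had 3, 7 and 6 reads in Ctl_siNC, 3, 2 and 9 in Ctl_siRHOB, 5, 10 and 4 in MK_siNC and 11, 15 and 7 in MK_siRHOB. The groups overlapped in both arms. Its log2 difference was 0.58 ± 0.66 with control siRNA and 1.21 ± 0.65 with RHOB siRNA (SE). With single libraries left out, the former ranged from 0.06 (without MK_siNC 2) to 0.82 (without MK_siNC 3). The latter ranged from 0.84 (without Ctl_siRHOB 2) to 2.03 (without Ctl_siRHOB 3). The FPKM of CD3D over that of CD3E was 103 and 96.8 in growth medium and 432 and 235 in MK medium. The 3 neighbouring CD3 genes thus had very unequal levels in the same libraries.

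CD247, the zeta chain and the richest in ITAMs, lies on chromosome 1. It had 1, 5 and 1 reads in Ctl_siNC, 2, 0 and 1 in Ctl_siRHOB, 4, 9 and 5 in MK_siNC and 6, 8 and 8 in MK_siRHOB. The MK and growth libraries did not overlap by normalised level, at counts too low for the fitted test. The ratio of its pooled counts between media was 3.20 with control siRNA (95% interval 1.27 to 9.06) and 7.34 with RHOB siRNA (2.21 to 38.3), where the exact Poisson intervals cover counting error only.

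The stretch before the start of CD3D is shown because it lies between the pair of CD3 genes that were both higher in MK medium. It was taken from the RefSeq promoter table (GRCh38.p14, minus strand, chr11:118342706-118342955), as the 250 bases before the annotated start. Capitals mark matches, on either strand, to AGGAAG, a form of the ETS motif, and to the RUNX motif TGTGGT. Other forms of the ETS motif were not searched. The paired matches to AGGAAG on the opposite strand, which read CTTCCT here, overlap by 2 bases.
CD3D: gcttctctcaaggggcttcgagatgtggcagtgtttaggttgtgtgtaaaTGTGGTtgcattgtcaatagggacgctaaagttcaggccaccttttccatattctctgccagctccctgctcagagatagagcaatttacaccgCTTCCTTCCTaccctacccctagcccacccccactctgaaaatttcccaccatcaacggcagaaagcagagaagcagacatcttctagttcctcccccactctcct

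The table held such windows for 7 of the 9 members, at 13 annotated starts. AGGAAG occurred in 9 of the 13 windows, against 28.7% of 35114 windows of all genes. All 7 members had it in at least 1 window, but several have more than 1 window, so the share per window is no measure for that count. The windows of SYK starts 1 and 2 overlap, so the 13 are not independent. TGTGGT occurred in 2 of the 13 windows, those of CD3D and of a start of LCK, against 11% of all windows. The AP-1 motif TGANTCA and the GATA motif AGATAA, searched on both strands, were in none of the 13, against 6.57% and 9.17% of all windows. The E-box CAGNTG, searched likewise, was in 7 of the 13, against 42.5% of all.

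LCK, the SRC family kinase that starts T cell receptor signalling, had 0, 1 and 0 reads in Ctl_siNC, 0, 0 and 4 in Ctl_siRHOB, 6, 4 and 12 in MK_siNC and 9, 6 and 11 in MK_siRHOB. The media did not overlap by normalised level in either arm, with levels in MK medium at 0.0564 to 0.157 FPKM. The pooled count ratio was 27.4 with control siRNA, with an interval of 4.42 to 1129 that reflects the single read, and 6.51 with RHOB siRNA (2.26 to 25.7).

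ZAP70, the kinase that binds phosphorylated CD3 and zeta chains, had 9, 3 and 26 reads in Ctl_siNC, 14, 2 and 5 in Ctl_siRHOB, 12, 27 and 19 in MK_siNC and 22, 29 and 40 in MK_siRHOB. The media overlapped with control siRNA and did not with RHOB siRNA. The log2 differences were 0.88 ± 0.80 and 2.09 ± 0.83 (SE). With single libraries left out, the first ranged from 0.38 (without Ctl_siNC 2) to 1.91 (without Ctl_siNC 3). The second ranged from 1.63 (without Ctl_siRHOB 2) to 3.13 (without Ctl_siRHOB 1).

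SYK, the relative of ZAP70 in B cells, myeloid cells and platelets, was the abundant kinase of this pair and its libraries overlapped between media. Its FPKM was 8.45, 8.19 and 11.9 in Ctl_siNC, 8.83, 8.56 and 11.7 in Ctl_siRHOB, 10.5, 10.9 and 9.71 in MK_siNC and 10.7, 9.73 and 11.8 in MK_siRHOB. The highest growth library of each arm was replicate 3. The log2 difference between media was 0.08 ± 0.13 with control siRNA and 0.09 ± 0.13 with RHOB siRNA (SE). Within replicate numbers it was 0.21, 0.31 and -0.26 in the first arm, so replicate 3 went the other way there, and the value from replicates 1 and 2 alone was 0.25, which lay past the threshold used for all genes. The mean FPKM of SYK was 62.8 and 106 times that of ZAP70 in growth medium and 36.8 and 25.9 times in MK medium.

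BTK, the TEC family kinase that activates phospholipase C gamma in B cells and platelets, was the most abundant member by FPKM in all 4 groups. It stood at 43.8, 39.9 and 47.8 FPKM in Ctl_siNC, at 43.1, 43.7 and 47.8 in Ctl_siRHOB, at 72.8, 77.0 and 53.8 in MK_siNC and at 78.2, 72.5 and 60.3 in MK_siRHOB. All MK libraries lay above all growth libraries, and replicate 3 was the lowest of each MK group. The log2 difference was 0.57 ± 0.13 with control siRNA and 0.59 ± 0.13 with RHOB siRNA (SE). Within replicate numbers it was 0.63, 0.85 and 0.20 in the first arm and 0.75, 0.64 and 0.34 in the second.

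LCP2, the adaptor that gathers phospholipase C gamma, VAV1 and TEC kinases after ZAP70 or SYK has acted, followed CD3D in the size of its difference among the abundant members. Its FPKM was 3.10, 3.46 and 5.52 in Ctl_siNC, 3.79, 3.26 and 5.63 in Ctl_siRHOB, 11.8, 10.9 and 19.9 in MK_siNC and 11.8, 11.6 and 20.2 in MK_siRHOB. The media did not overlap, and replicate 3 was the highest library of every group, at 1.60 to 1.75 times the mean of the others. The log2 difference was 1.78 ± 0.32 with control siRNA and 1.73 ± 0.32 with RHOB siRNA (SE). It was 1.82, 1.56 and 1.88 within replicate numbers in the first arm and 1.53, 1.74 and 1.84 in the second. C5orf58, which overlaps LCP2 exons on the opposite strand in GENCODE 29, had 9 to 35 reads per library against 548 to 3173 for LCP2.

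The starts of BTK and LCP2 are shown because these abundant members were both higher in MK medium; for BTK the first of 2 listed starts was taken. Both are 250-base RefSeq windows of GRCh38.p14 on the minus strand, at chrX:101390797-101391046 and chr5:170297778-170298027, with matches to AGGAAG on either strand in capitals. Each holds 3 such matches. Other forms of the ETS motif, such as the CGGAAG in the BTK window, were not marked.
BTK: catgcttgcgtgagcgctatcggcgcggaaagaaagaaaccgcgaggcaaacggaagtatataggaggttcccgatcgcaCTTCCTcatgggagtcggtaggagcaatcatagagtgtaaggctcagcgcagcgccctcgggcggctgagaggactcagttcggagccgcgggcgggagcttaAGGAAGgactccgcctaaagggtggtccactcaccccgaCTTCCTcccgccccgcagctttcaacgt
LCP2: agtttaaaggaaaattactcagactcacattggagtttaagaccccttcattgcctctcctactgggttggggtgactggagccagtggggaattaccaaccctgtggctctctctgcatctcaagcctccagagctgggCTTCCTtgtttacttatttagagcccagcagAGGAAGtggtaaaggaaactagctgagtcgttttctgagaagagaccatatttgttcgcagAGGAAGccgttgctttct

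**Figure D2:**
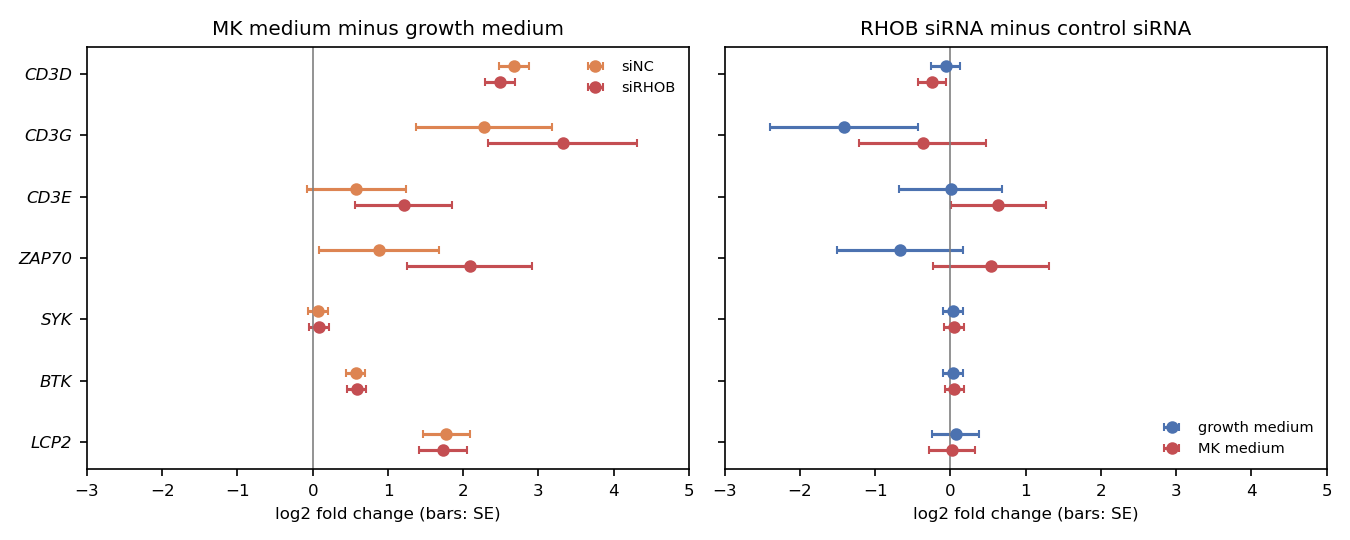
Log2 differences of the 7 tested members (points, with SE bars) between media in each siRNA arm (left) and between siRNAs in each medium (right). CD3D and LCP2 lie well to the right of 0 in the medium comparison, SYK lies at 0, and CD3G and ZAP70 have wide bars.

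The choice of the members fixes how many of them lie past the threshold used for all genes (adjusted p under 0.05, edgeR), so these counts are no test of the members and nothing is read from them. Of the 7 in the fit, 4 lay past it on the higher side with control siRNA (CD3D, CD3G, BTK and LCP2), 5 with RHOB siRNA (ZAP70 as well) and none on the lower side. Over all genes tested, 30.5% were called higher and 28.4% lower with control siRNA, and 31% higher and 29.1% lower with RHOB siRNA. The libraries of the media were fully separate, with MK medium higher, for 4 of the 7 with control siRNA and 5 with RHOB siRNA, against 34.3% and 35.6% of all genes tested. With single libraries left out, CD3G with control siRNA fell short of the threshold in 10 of 12 fits and ZAP70 with RHOB siRNA in 9 of 12.

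RHOB siRNA was compared with control siRNA in each medium to see whether the same genes differed with the siRNA. For the abundant members the differences were small. In growth medium the log2 difference was -0.06 ± 0.20 for CD3D, 0.03 ± 0.13 for SYK, 0.03 ± 0.13 for BTK and 0.07 ± 0.31 for LCP2 (SE, n = 3 against 3). In MK medium it was -0.25 ± 0.19, 0.04 ± 0.13, 0.05 ± 0.13 and 0.02 ± 0.31 for the same genes. CD3D was lower with RHOB siRNA in 3 of 3 replicate numbers in MK medium, by 0.10, 0.21 and 0.47 on the log2 scale, but the libraries overlapped.

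The low members had wide errors in this comparison. CD3G differed by -1.41 ± 0.99 in growth medium and -0.37 ± 0.84 in MK medium, CD3E by 0.01 ± 0.68 and 0.64 ± 0.63, and ZAP70 by -0.67 ± 0.84 and 0.54 ± 0.77. The growth values turned with single libraries: CD3G was 1.07 without Ctl_siNC 3, ZAP70 was 0.37 without Ctl_siNC 3 and -1.72 without Ctl_siRHOB 1, and CD3E was -0.83 without Ctl_siRHOB 3 and 0.37 without Ctl_siRHOB 2. In MK medium CD3E was 1.14 without MK_siNC 2, and ZAP70 was 0.20 without MK_siRHOB 3 and 0.89 without MK_siNC 2. The libraries of the siRNA groups overlapped for all 9 members in both media.

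No member passed in edgeR, and 0% of the genes tested did in growth medium (156 at an unadjusted p under 0.05, none of them a member), 0% in MK medium (50, again with no member) and 0% for the change of the siRNA difference with medium (106, with no member). DESeq2 and limma on log FPKM also called 0 genes in the 3 comparisons. The difference between the medium effects of the siRNA arms was -0.18 ± 0.27 on the log2 scale for CD3D, 0.01 ± 0.19 for SYK, 0.01 ± 0.18 for BTK and -0.05 ± 0.44 for LCP2. For the low genes it was 1.05 ± 1.29 for CD3G, 0.63 ± 0.93 for CD3E and 1.21 ± 1.14 for ZAP70.

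Markers of lymphocytes were looked at beside the CD3 genes. Of 18 T cell markers, 6 to 8 had 0 reads in each group, and CD8A, CD28, THEMIS and TRAT1 had 0 reads in all 12 libraries. CD2 had 13 and 8 reads in the growth groups and 0 in both MK groups. A single library held 11 of the 13 reads in Ctl_siNC, and another all 8 in Ctl_siRHOB. The summed level of the list was 20.4 to 25.3 CPM in growth medium and 54.3 to 119 CPM in MK medium, mostly TCF7, IL7R and PTCRA. Their part in the CD3 differences was not tested.

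Of the 6 T cell markers tested, 5 rose and 1 fell in MK medium with control siRNA, and 4 rose and 1 fell with RHOB siRNA. The shares over all genes tested were 30.5% higher and 28.4% lower with control siRNA, and 31% and 29.1% with RHOB siRNA. IL7R, PTCRA, CD5 and CD4 had few growth reads and entered the fit through their MK libraries. Only a rise could thus be called for them. The counts are therefore no test of the list. IL7R, the interleukin-7 receptor alpha chain, rose from 0.0948 to 24.3 CPM with control siRNA (log2 difference 7.86 ± 0.97, adjusted p = 7.44e-05, edgeR), with 8.90 without Ctl_siNC 2 and 7.11 without MK_siNC 3. TCF7, a transcription factor of T cell precursors, rose by 1.33 ± 0.27 (adjusted p = 0.0016). PTCRA, the pre-T cell receptor alpha chain that pairs with CD3 in thymocytes, rose by 4.44 ± 0.90 (adjusted p = 0.00142), with 6.87 without Ctl_siNC 3, 3.82 without Ctl_siNC 2 and 3.85 without MK_siNC 3. CD5 rose by 3.55 ± 0.72 (adjusted p = 0.00149) from 4 to 42 reads, and by 4.86 without Ctl_siNC 1. CD4 rose by 2.54 ± 0.78 with control siRNA (adjusted p = 0.016), and did not pass without MK_siNC 2 (adjusted p = 0.0798) or with limma on log2(FPKM + 1) (0.0599). With RHOB siRNA its difference of 0.59 ± 0.70 did not pass (adjusted p = 0.487). UBASH3A, a lymphocyte phosphatase-like regulator, fell by 4.19 (log2, SE 0.58, adjusted p = 0.00011).

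Among 11 B cell markers, MS4A1 and VPREB1 had 0 reads in all 12 libraries, and the summed level was 11.3 to 14.5 CPM in growth medium and 12.9 to 44.8 CPM in MK medium. Of the 7 tested, 3 rose and 3 fell with control siRNA, and 4 rose and 2 fell with RHOB siRNA. Among 12 NK cell markers, KLRD1, KLRC1 and EOMES had 0 to 2 reads in a group, with summed levels of 11.6 to 15.5 CPM in growth and 13.4 to 24.8 CPM in MK medium, and 3 of 8 tested rose and 1 fell in each arm. Of all genes tested, 30.5% were called higher and 28.4% lower with control siRNA, and 31% and 29.1% with RHOB siRNA. PAX5 (0 and 2 reads in the growth groups), CD79B (17 and 2) and CD72 (21 and 18) entered the fit through their MK libraries. So did GNLY (14 and 12) and FCGR3A (17 and 36). Only a rise could therefore be called for these genes, and the counts are no test of the lists. The part of these lists in the differences of the members was not tested.

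**Figure D3:**
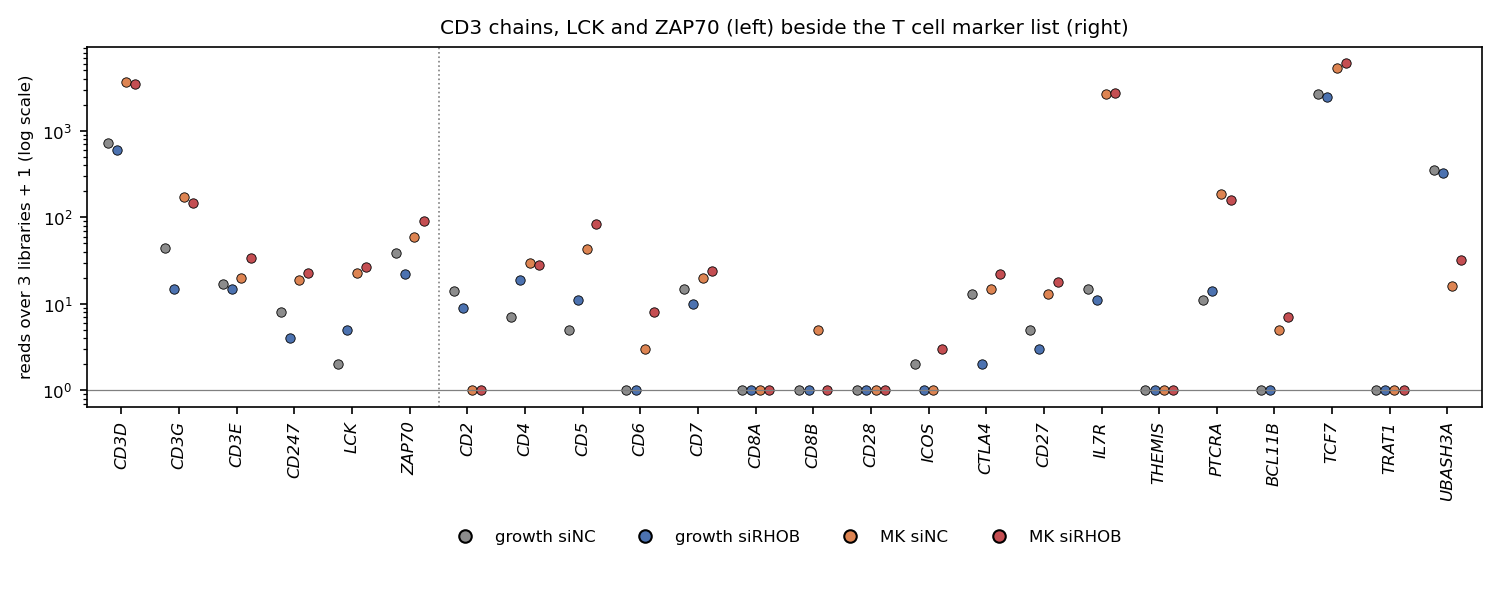
Reads over the 3 libraries of each group plus 1 (log scale) for the CD3 chains, LCK and ZAP70 (left of the dotted line) and for the 18 T cell markers (right). CD3D, IL7R and TCF7 have the most reads in MK medium (2679 for IL7R in MK_siNC), while CD8A, CD28, THEMIS and TRAT1 sit on the line for 0 reads.

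The rest of the receptor pathway was described from 6 lists holding 97 genes, of which 96 were in the table and 76 were tested. With control siRNA, 34 rose and 15 fell in MK medium, and with RHOB siRNA 34 rose and 19 fell. All genes tested had shares of 30.5% higher and 28.4% lower in the first arm, and 31% and 29.1% in the second. The median log2 difference of the 76 was 0.37 and 0.40, against 0.06 and 0.05 over all genes tested. These lists were chosen with earlier results of these data known, so the counts and medians are a description and no test of the pathway. No gene of the lists passed in either siRNA comparison, where 2 had an unadjusted p under 0.05 in growth medium and none in MK medium.

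Of 12 other ITAM receptors and adaptors, 6 were tested: 5 rose with control siRNA and 3 with RHOB siRNA, and none fell. Of all genes tested, 30.5% and 31% were called higher. TREM1 (0 reads in both growth groups), FCER1A (1 and 8 reads) and FCGR1A (10 and 33) entered the fit through their MK libraries. A fall could therefore not be called for them. GP6, the platelet collagen receptor, rose by 1.74 ± 0.20 with control siRNA (SE, adjusted p = 2.97e-05, edgeR) and by 1.90 ± 0.20 with RHOB siRNA (adjusted p = 1.48e-05), from 18.7 ± 6.31 to 62.7 ± 2.80 CPM in the first arm (SD, n = 3). FCGR2A, the IgG receptor of platelets, which has an ITAM of its own, rose by 1.35 ± 0.26 (adjusted p = 0.00121) and 1.36 ± 0.26 (adjusted p = 0.00106). FCER1G, the signalling chain that GP6 needs at the surface, had 9 and 5 reads in growth medium and 20 and 9 in MK medium. Of the 20 reads in MK_siNC, 18 came from a single library, and FCER1G was not tested.

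TREM1, a receptor of myeloid cells, had 0 reads in growth medium. It had 16, 8 and 170 reads in MK_siNC, at least 84.0-fold higher when growth medium is set to 3 reads in the group, and at least 15.9-fold higher without MK_siNC 3. Its adjusted p was 0.0345 with control siRNA and 0.0779 with RHOB siRNA (edgeR), where the fit with a replicate block gave 0.00689, DESeq2 0.00452, and the fits without MK_siNC 3 or MK_siRHOB 1 0.0438 and 0.0404. The first call was lost without MK_siNC 3 (adjusted p = 0.078) or without Ctl_siNC 1, 2 or 3 (0.0673, 0.0713 and 0.0614).

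The SRC family kinases and their inhibitory kinases moved both ways, with 3 of 7 tested genes higher and 3 lower in each arm. LYN, which phosphorylates ITAMs in B and myeloid cells, fell by 1.46 with control siRNA and by 1.42 with RHOB siRNA (log2, SE 0.07 in both, adjusted p = 8.33e-08 and 9.3e-08, edgeR), from 196.9 ± 1.91 to 71.4 ± 4.10 CPM in the first arm (SD, n = 3). MATK, a CSK relative that inhibits SRC kinases, fell by 2.07 and 2.04 (SE 0.21 in both, adjusted p = 1.28e-05 and 1.23e-05). SRC rose by 1.26 ± 0.21 and 1.30 ± 0.21 (adjusted p = 0.000406 and 0.00031). LCK, by comparison, had at most 12 reads in any library.

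TEC, the kinase that gives the BTK family its name, was tested in both arms and is named here after its values were seen. TEC fell by 0.46 with RHOB siRNA (log2, SE 0.17, adjusted p = 0.0403), a call lost in 6 of the 12 fits that left out a library and with 3 other settings, and its difference of -0.34 ± 0.17 with control siRNA did not pass (adjusted p = 0.114).

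Of 14 tested adaptors, 7 rose and 2 fell in each arm. LAT2, a LAT relative of B and myeloid cells, rose by 2.61 ± 0.21 with control siRNA and 2.29 ± 0.21 with RHOB siRNA (SE, adjusted p = 2.93e-06 and 5.67e-06, edgeR). SH3BP2, a SYK-binding adaptor, rose by 2.53 ± 0.26 and 2.82 ± 0.27 (adjusted p = 1.9e-05 and 8.83e-06). GRAP2 (GADS), which links LCP2 to LAT, rose 4.61-fold and 4.59-fold (SE 0.27 on the log2 scale in both, adjusted p = 5.03e-05 and 4.54e-05), from 63.8 ± 19.2 to 294.2 ± 22.6 CPM in the first arm (SD, n = 3). LAT itself, named outside the rule and chosen after its values were seen, rose by 1.06 ± 0.27 and 1.22 ± 0.27 (adjusted p = 0.00565 and 0.00255).

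Of 26 tested effectors, 8 rose and 5 fell with control siRNA, and 10 rose and 8 fell with RHOB siRNA. ITPKB, an inositol trisphosphate kinase, had 2 reads in Ctl_siNC and 128 in MK_siNC, a count ratio of 83.1 (95% interval 22.5 to 693.5, counting error only), and 4 and 139 reads with RHOB siRNA (36.4, 13.9 to 135.3), with adjusted p = 0.00222 and 0.00367 (edgeR). ITPKB entered the fit through its MK libraries, so only a rise could be called for it. Its fitted log2 difference of 5.99 with control siRNA was 8.54 without Ctl_siNC 1, 5.39 without Ctl_siNC 2 and 5.002 without MK_siNC 3. That of 5.05 with RHOB siRNA was 8.60 without Ctl_siRHOB 2 and 4.43 without MK_siRHOB 3. RASGRP3, a RAS and RAP activator, rose by 5.28 ± 1.10 and 5.24 ± 1.09 (SE, adjusted p = 0.00212 and 0.00209). The first RASGRP3 value was 7.42 without Ctl_siNC 3 and 4.57 without MK_siNC 3, and the second was 6.72 without Ctl_siRHOB 3 and 4.60 without MK_siRHOB 3. WIPF1, a partner of the WASP protein, rose by 3.37 ± 0.44 and 3.18 ± 0.44 (adjusted p = 9.19e-05 and 0.000119). PLCG2, the platelet phospholipase C gamma, chosen after its values were seen, did not pass with control siRNA (-0.46 ± 0.25, adjusted p = 0.128) and fell by 0.63 with RHOB siRNA (SE 0.25, adjusted p = 0.0448). That call was lost in 9 of the 12 fits that left out a library, and the control siRNA value passed from replicates 1 and 2 alone (adjusted p = 0.0086) and without MK_siRHOB 3 (0.0336).

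Of 19 tested negative regulators, 10 rose and 5 fell in each arm. CBLB, a ubiquitin ligase that restrains receptor signalling, rose by 2.92 ± 0.11 and 3.18 ± 0.11 (SE, adjusted p = 1.76e-08 and 1.01e-08, edgeR), from 13.9 ± 0.650 to 105.8 ± 10.2 CPM with control siRNA (SD, n = 3). UBASH3B, a phosphatase that acts on SYK and ZAP70, rose by 3.21 ± 0.84 and 2.73 ± 0.83 (adjusted p = 0.00675 and 0.0144). The first UBASH3B value was 4.41 without Ctl_siNC 3, and the second did not pass without Ctl_siRHOB 2 (adjusted p = 0.0612) or MK_siRHOB 3 (0.0517). Its relative UBASH3A, also in the T cell list, fell by 3.35 with RHOB siRNA (SE 0.54, adjusted p = 0.000306), and its difference with control siRNA, given above, was -5.17 without MK_siNC 1.

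**Figure D4:**
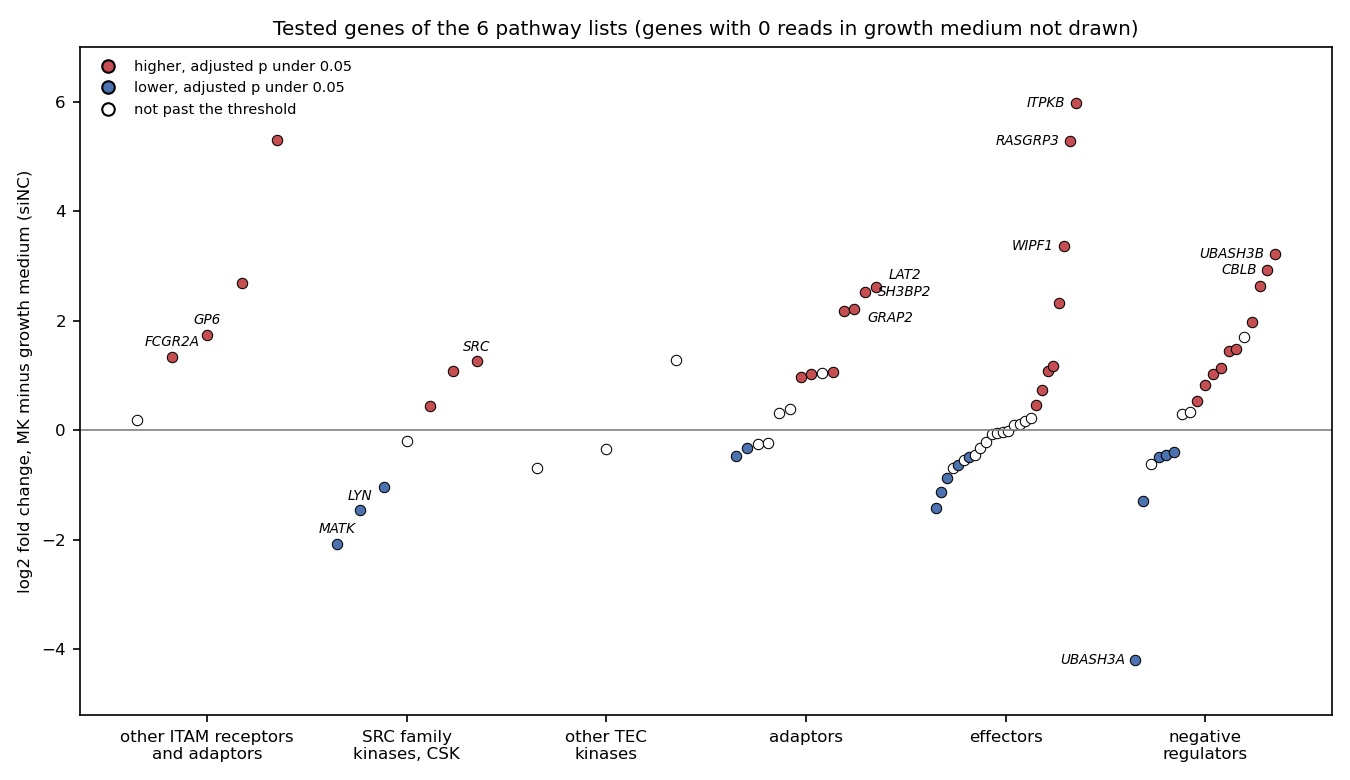
Log2 differences between MK and growth medium with control siRNA (vertical axis) for the tested genes of the 6 pathway lists, 1 point per gene; red points were higher and blue lower at an adjusted p under 0.05, and the named genes are labelled. TREM1 and any other gene with 0 reads in growth medium are not drawn. Rises reach 5.99 (ITPKB), and UBASH3A lies lowest.

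The genes whose profiles over the 12 libraries lay nearest to each member were listed by the root mean square difference of centred log2 CPM. For CD3D they were CFAP45 (0.18), ARRDC4 (0.19) and PLIN5 (0.19), and for LCP2 they included NPL (0.13) and CORO6 (0.14). For BTK they were KIDINS220 (0.06), PRDX6 (0.07) and STRIP2 (0.07), and for SYK RRN3 (0.07), SMIM10L1 (0.08) and ORAOV1 (0.08). The low members had looser neighbours: DOK2 (0.51), TP53INP1 (0.55) and APOL3 (0.58) for CD3G, IL18R1 (0.28), CCDC173 (0.30) and COLGALT2 (0.34) for CD3E, and LURAP1L (0.47), GBP7 (0.50) and RP1L1 (0.51) for ZAP70. Among the members themselves, SYK and BTK were nearest (0.30), and CD3G and SYK farthest apart (1.64).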

How the data were processed

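RNA of 12 K562 libraries was sequenced after polyT selection and PCR, per the labels' protocols. The authors deposited raw read counts and FPKM values for each gene symbol, 1 column per library, matched to samples by column name. The deposited FPKM equals the count divided by a fixed gene length and the column total. Per the submitters' processing notes, the tools were HISAT2 2.2.1, featureCounts 2.0.2 and edgeR, on GRCh37.p13. No source used here gives the strand or multimapping settings, so overlapping genes are uncertain.

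The quasi-likelihood test of edgeR 4.0.16 (R 4.3.3, limma 3.58.1) was run on the counts of all 12 libraries in 1 fit of 4 group means, with TMM scaling, filterByExpr by group, robust dispersion, two-sided tests and Benjamini-Hochberg adjustment over 14026 genes. SE was taken as the size of the log2 fold change over the root of the F statistic. CPM is TMM-scaled, and log2 CPM used a prior count of 2. Intervals of count ratios are exact Poisson at 95%. Alternatives were RLE scaling, no filter, DESeq2 1.42.0, limma on log2(FPKM + 0.1) and log2(FPKM + 1), a replicate block, each library left out, and replicates 1 and 2 alone. For CD4, CD5, IL7R, PTCRA, TCF7, LAT, TEC and PLCG2 they were added after seeing the data. The test was checked on simulated data.

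Whether replicates came from separate cultures is not stated in the labels, and p-values then cover the spread among these samples, which may be technical. Deviations of same-numbered libraries from their group mean correlated between groups at 0.151 to 0.601 (replicate 1), 0.190 to 0.476 (replicate 2) and 0.340 to 0.834 (replicate 3). Replicate 3 stood apart in every group, which sets replicates 1 and 2 on the same side of each group mean. Libraries of unlike number were not compared in this way. These values therefore cannot show whether numbers 1 and 2 pair the samples. Within each group no library was a copy of another (chi-square per gene of 4.21 or more); pairs between groups were not compared.

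Members and gene lists were chosen with earlier results of these data known. Named pathway genes are, per list, up to 3 with the largest absolute log2 difference past the threshold with control siRNA whose higher group averages 1 CPM or more; others are named as chosen after their values were seen. Promoter windows are from RefSeq, which is on another build than the counts; gene order and overlap are from GENCODE 29, by name only. CD3E and CD3G had no window in the table. Some single-gene results that the rules would name are not reported here.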

Additional observations from a re-analysis of the deposited data

How the results depend on the processing

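The counts of pathway genes and of all genes called between media stayed within 1.5 times under every alternative run. With a replicate block, 38 pathway genes were higher and 19 lower with control siRNA, and 38 and 21 with RHOB siRNA; among the named pathway genes and T cell markers the block changed the call of TREM1 with RHOB siRNA and no other. The siRNA comparisons gave 0 calls under every alternative but one: replicates 1 and 2 alone gave 1 gene in growth medium, CXCL8, chosen after its value was seen (log2 difference -1.70, adjusted p = 0.00208). The growth-medium siRNA difference of CD3G changed sign, to 0.70 from replicates 1 and 2 alone, and ranged from -1.91 to 1.07 when single libraries were left out; that of ZAP70 went from -0.67 to 0.61 and that of CD3E from 0.01 to -0.72 from replicates 1 and 2 alone. With log2(FPKM + 1), the CD3G medium differences were 0.86 and 0.83 and the TREM1 and CD4 calls with control siRNA were lost (adjusted p = 0.107 and 0.0599), as were those of TEC and PLCG2 with RHOB siRNA (0.114 and 0.0571). The order of the 9 levels was the same by TMM-scaled CPM per length in every group. Low counts limit CD3E, CD247, LCK and ZAP70.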
